A study of Nasonia vitripennis with 9 samples.

Results

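Gene expression in whole male *Nasonia vitripennis*, a small parasitoid wasp that feeds as a larva on fly pupae, was compared between dsGFP-injected animals (3 libraries) and uninjected animals (3 libraries). These 6 libraries were chosen by their group labels out of 9 in the series, and the remaining 3 libraries, from animals injected with water and dye, entered the same statistical fit. All animals were of the laboratory strain AsymCX, cured of Wolbachia, and each library held a pool of 5 individuals. The dsGFP animals had received dsRNA that targets green fluorescent protein (GFP; 4 µg/µl, in water dyed red) by injection as second-instar larvae, some 3 days after the eggs were laid. They had been handled on 1% agarose, put back at 6 to 8 larvae per host, and collected 5 to 6 days later. The uninjected animals received no needle, dye or dsRNA, and the labels do not say whether they were moved onto agarose. Collection is timed in days after injection, which gives no such count for uninjected animals. The comparison therefore holds the dsRNA, the injection, any handling and any difference in age or stage at collection together, and these cannot be told apart here. The labels give the stage as white pupae in the treatment protocol and as larvae elsewhere, and pupae is used below. Nothing in them tells whether the pools of a group were reared apart. The p-values below therefore reflect how much these pools vary, which may in part be technical.

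Long double-stranded RNA injected into an insect is cut into short interfering RNAs by a Dicer enzyme, and an Argonaute protein then uses these to find and cut matching transcripts. GFP has no counterpart in the wasp genome, so dsGFP serves widely as a control for the presence of double-stranded RNA in knockdown experiments. At the white pupal stage the larval fat body is being remodelled, the pupal cuticle has been laid down, and the adult nervous system, sense organs and flight muscle are forming. In whole animals, fewer cells of a type and less RNA per cell give the same fall in counts and cannot be told apart.

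The libraries differed in several ways besides the treatment. Gene totals were 33885222 to 35982723 read pairs with dsGFP and 38792239 to 46080606 in uninjected animals, and every dsGFP library was the shallower. Unmapped read pairs made up 5.56, 5.77 and 5.86% of the dsGFP libraries, 4.94, 5.17 and 5.84% of the water libraries, and 3.34, 3.11 and 2.63% of the uninjected libraries. The dsGFP and uninjected ranges did not overlap (exact two-sided permutation p = 0.1, the smallest that 3 against 3 allows, adjusted p = 0.133 over 4 shares). In a principal component analysis of the 6 libraries over the 500 most variable genes, uninjected 3 lay at 48.8 on the first component (51.2% of variance) and the other 5 libraries at -26.9 to 3.39. Uninjected 2 lay at -41.5 on the second component (31.7%), with the other 5 at 0.572 to 16.4. The uninjected pools thus stood further apart from each other than the dsGFP pools did (r across genes 0.96 to 0.976 within uninjected, 0.982 to 0.987 within dsGFP, genes not being independent replicates). Between dsGFP and uninjected pools r was 0.941 to 0.989, the highest of these above any value within a group. On the first component dsGFP 3 (-1.47) lay beside uninjected 1 (-1.01), so the groups did not form separate clusters there. The part of these differences in the gene results was not tested, except that counts thinned to equal depth gave 525 called genes in place of 531.

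**Figure D1:**
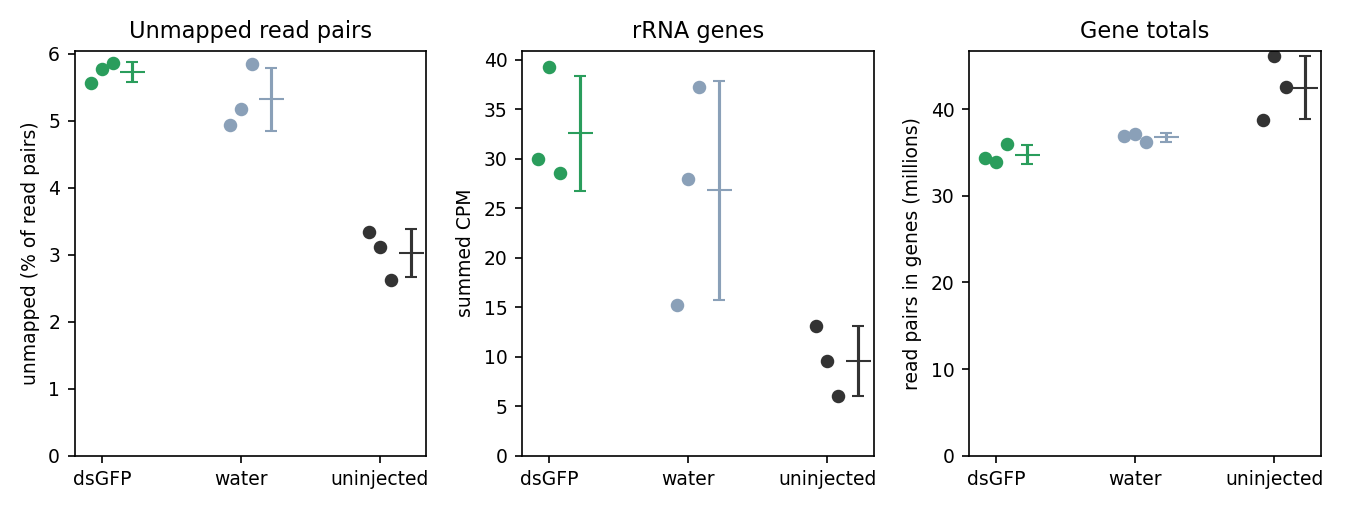
Unmapped read pairs (percent of all read pairs), summed CPM of rRNA genes and gene totals (read pairs) in each library, with points for libraries and bars for the mean ± SD of 3. Unmapped shares and rRNA CPM of all 3 dsGFP libraries lay above all 3 uninjected libraries, with the water libraries also above them.

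Falls outnumbered rises by a wide margin. Of 11665 genes tested, 531 (4.55%) differed between dsGFP and uninjected pupae by edgeR's quasi-likelihood test at an adjusted p under 0.05, of which 480 (4.11%) fell and 51 (0.437%) rose with dsGFP. All 480 falls had every dsGFP library below every uninjected library, and all 51 rises the reverse, against 13.1% and 8.79% of all genes tested. At an unadjusted p under 0.05, 1433 genes were lower and 743 higher. The scaling of the libraries centres the fitted values of all genes near 0 (median log2 fold change 0.00725, with 5967 values above 0 and 5698 below). Most falls were modest. Their median log2 fold change was -0.92 (range -4.58 to -0.39), and 270 of 480 lay between 1.5-fold and 2-fold, 161 between 2-fold and 4-fold, and 13 beyond 4-fold. Rises had a median of 0.76 (range 0.42 to 3.83), with 20 of 51 between 1.5-fold and 2-fold, 12 between 2-fold and 4-fold, and 8 beyond 4-fold. The fit placed the whole 95% interval of the fold change within 2-fold for 9036 genes (77.5%).

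**Figure D2:**
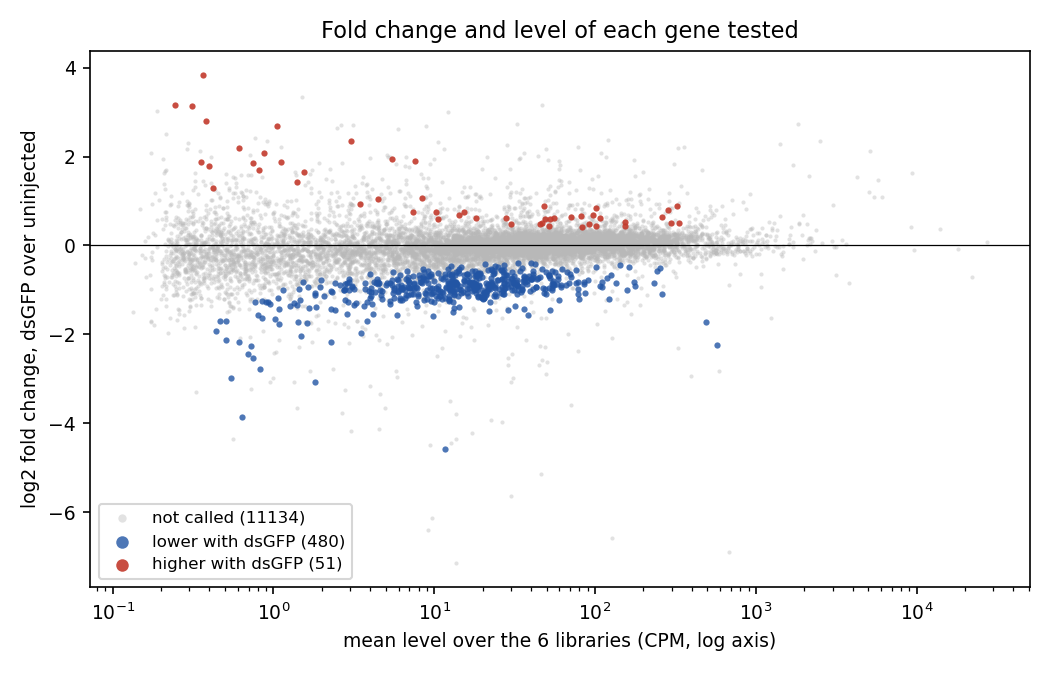
Fitted log2 fold change of dsGFP over uninjected for each of 11665 genes tested (vertical axis) against its mean CPM over the 6 libraries (log axis), with 480 falls in blue and 51 rises in red. Falls gather between 1 and 100 CPM, and rises are spread over the whole range of levels.

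The genes that fell sat in the lower middle of the range of read counts. Levels are in CPM, the read pairs of a gene scaled to the library's total. The median level of falls was 14.3 CPM over the 6 libraries (interquartile range 6.66 to 27.7), against 15.4 CPM for rises (1.27 to 82.2) and 28.5 CPM for all genes tested (6.73 to 76.4). CPM is not divided by transcript length, so these levels do not rank genes by transcript number. Falls were most frequent among genes at 1 to 10 CPM, where 156 of 2266 (6.88%) fell, followed by 287 of 5978 (4.80%) at 10 to 100 CPM. They were scarce at both ends, with 18 of 1212 (1.49%) under 1 CPM and 19 of 2209 (0.860%) at 100 CPM and over. The scarcity under 1 CPM stood beside a wider error, since the median half-width of the 95% interval was 0.884 on the log2 scale there and 0.469 at 1 to 10 CPM. At 100 CPM and over that half-width was 0.295, close to the 0.285 at 10 to 100 CPM, where falls were more frequent. The median log2 fold change of all genes also moved with level, at -0.20 under 1 CPM, -0.13 at 1 to 10 CPM, 0.02 at 10 to 100 CPM and 0.09 at 100 CPM and over. Rises showed no such middle peak. They made up 0.908% of genes under 1 CPM, 0.485% at 1 to 10 CPM, 0.318% at 10 to 100 CPM and 0.453% at 100 CPM and over, from 10 to 19 genes in each class. Rises under 1 CPM were large (median log2 fold change 2.08, 11 genes), and those at 100 CPM and over were small (0.57, 10 genes). Falls followed the same order (-1.82 under 1 CPM and -0.84 at 100 CPM and over). With the wider error under 1 CPM, only larger changes can be called there.

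**Figure D3:**
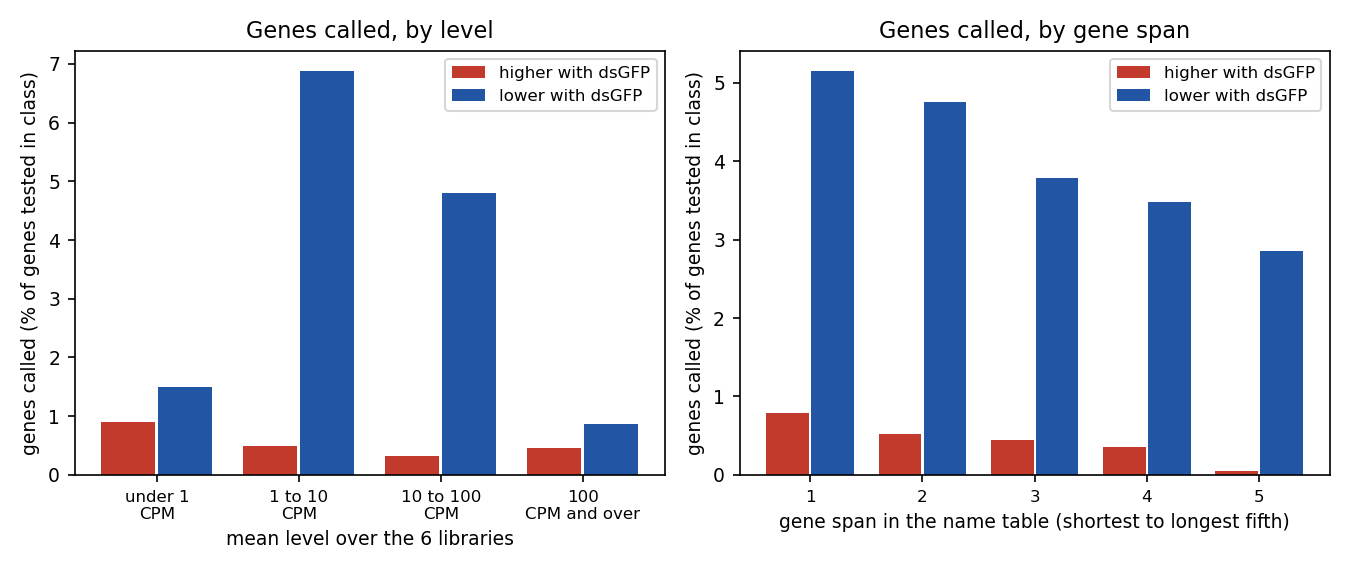
Share of the genes tested that rose (red) or fell (blue) with dsGFP, by mean CPM over the 6 libraries (left) and by 5 equal classes of gene span from shortest to longest (right). Falls peak at 6.88% in the class of 1 to 10 CPM and drop to 0.860% at 100 CPM and over, and decline from 5.15% in the shortest span class to 2.86% in the longest. The span classes are not matched for level.

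By gene type in the name table, protein-coding genes gave 92.5% of falls and 76.5% of rises. That was 444 falls (4.08% of 10891 tested) and 39 rises (0.358%). Long non-coding RNAs gave 10 falls (2.48%) and 2 rises (0.495%) among 404 tested, beside 4.11% and 0.437% of all genes tested. The 12 rRNA genes tested held 5 rises (41.7%) and 0 falls, and 42 pseudogenes held 3 rises (7.14%) and 0 falls. With 4.11% of all genes falling, 0 falls in classes this small says little. Genes with no match in the table gave 25 falls and 2 rises among 300 (8.33% and 0.667%). Of 599 tested genes with a descriptive symbol 16 fell (2.67%, against 4.11% of all genes) and 3 rose (0.501%, against 0.437%). The remaining 464 falls and 48 rises were genes known only by a locus number, which the table gives no product for. The median span from start to end of the gene was 2505 bp for rises (49 of 51 with a span), 3390 bp for falls (455 of 480) and 4252 bp for all genes tested (11365 of 11665), on assembly Nvit_psr_1.1. From the shortest to the longest of 5 equal classes of span, 5.15, 4.75, 3.79, 3.48 and 2.86% of genes fell. Rises made up 0.792, 0.527, 0.440, 0.352 and 0.0440% in the same order. Span classes also differed in level, with 199 protein-coding genes at 100 CPM and over in the shortest class and 775 in the longest. Among protein-coding genes at 10 to 100 CPM, 6.28, 5.4, 4.32, 4.81 and 3.35% fell in this order. At 1 to 10 CPM the shares were 8.14, 6.48, 7.3, 4.32 and 6.12%. At 100 CPM and over they were 1.01, 1.15, 0.279, 0.853 and 0.903%, without a steady decline.

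The order of the pools was uneven among the falls. dsGFP 2 was the lowest of the dsGFP libraries in 392 of the 480 genes that fell (81.7%, against 36.8% of all genes tested). Uninjected 1 was the lowest of the uninjected libraries in 379 of them (79.0%, against 32.7%), and uninjected 2 the highest in 297 (61.9%, against 31.4%). The water libraries, which the calls did not compare, held intermediate values. Genes chosen for a wide gap between dsGFP and uninjected libraries tend by that choice alone to place another group between them. Over the 480 falls the median of the group means was 10.1 CPM with dsGFP, 13.8 CPM with water and 19 CPM in uninjected animals, and over the 51 rises it was 19.3 CPM with dsGFP, 17 CPM with water and 11.4 CPM in uninjected animals. Water and dsGFP pools are each set here against the same 3 uninjected libraries. With dsGFP 2 left out 134 genes were called (122 lower, 12 higher), with dsGFP 1 left out 244, and with dsGFP 3 left out 512. Leaving out uninjected 2 gave 295, uninjected 3 gave 362, and uninjected 1 gave 681 (592 lower, 89 higher). In each of these 6 fits falls made up most of the calls, from 86.5% without dsGFP 3 to 94.8% without uninjected 3. In a fit of the 6 compared libraries, with no water library to add to the estimate of spread, 255 genes were called (234 lower, 21 higher). Of 52 called genes that are named in the text, 34 lost their call in that fit, among them GRD, CYP314A1, TctexA and LOC103317436. With dsGFP 1, water 3 and uninjected 3 left out together, edgeR called 0 genes (1698 at an unadjusted p under 0.05) in a fit of 2 libraries per group. That fit is not among the 21 alternative settings cited for single genes.

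The most firmly called rise was LOC116416025, a protein-coding gene of unknown product. It was at 1.99, 1.78 and 1.69 CPM with dsGFP (54 to 68 read pairs), 1.54, 1.73 and 1.73 CPM with water, against 0.315, 0.284 and 0.249 CPM in uninjected animals. Every injected pool stood well above the uninjected pools, and dsGFP and water pools lay close together. In the fit this gave a log2 difference of 2.68 over uninjected (SE 0.23, edgeR adjusted p = 0.00154), and the call held in all 21 alternative settings tried. LOC116418289, which has no match in the name table, also rose in all of these settings, at 8.63 ± 2.45 CPM with dsGFP and 2.24 ± 0.929 CPM in uninjected animals (SD, n = 3 each, log2 fold change 1.95, SE 0.31, edgeR adjusted p = 0.0105). The lncRNA genes LOC116415850 (1.77 ± 0.507 against 0.483 ± 0.184 CPM) and LOC116417615 (11.4 ± 2.33 against 5.44 ± 0.684 CPM) were also among the 8 largest rises at 1 CPM or more, a group that also held 3 rRNA genes and a pseudogene. LOC116415850 kept its call without dsGFP 3, uninjected 1, water 1 or water 2, and lost it without any of the other 5 libraries (adjusted p = 0.0782 to 0.166). LOC116417615 kept its call only without water 2 or water 3 (adjusted p = 0.0548 to 0.157 without any other).

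Ribosomal RNA genes, with a pseudogene among them, formed the only run of 3 or more neighbouring genes that rose. Ribosomal RNA is the structural RNA of ribosomes and carries no poly(A) tail in its mature form, so what a poly(A)-enriched library holds of it is a remainder. Summed over the 245 rRNA genes in the files, the level was 29.9, 39.2 and 28.5 CPM with dsGFP, 15.2, 28 and 37.3 CPM with water, against 13.1, 9.57 and 6.02 CPM in uninjected animals. All dsGFP libraries lay above all uninjected libraries (32.6 ± 5.83 against 9.56 ± 3.54 CPM, SD, n = 3 each, exact two-sided permutation p = 0.1, the smallest possible). Among the 12 rRNA genes tested, 5 rose, and all 12 had positive fitted values (median log2 fold change 1.63). Some of the 12 passed the filter on low counts only through injected libraries, which favours positive values. LOC116417847, for example, had 5 read pairs in each uninjected library. LOC116417866, with the largest change, was at 4.47, 6.75 and 4.07 CPM with dsGFP and 1.58, 0.962 and 0.457 CPM in uninjected animals. LOC116417862, with the most reads, was at 10.5, 15.8 and 9.66 CPM with dsGFP, against 4.36, 3.43 and 1.89 CPM in uninjected animals. The other 3 were LOC116417861 (log2 fold change 1.66), LOC116417863 (2.20) and LOC116417845 (1.30). With the pseudogene LOC116417871 (1.42) these 5 made a run of 6 successive tested genes that rose. The choice of rRNA genes as a class was made with the calls known. Copies of rRNA genes are near-identical and read pairs with several matches were not counted, so the level of a single copy is uncertain. Leaving out dsGFP 1 or dsGFP 2 ended most of these calls, as for LOC116417866 (adjusted p = 0.118 and 0.177) and LOC116417862 (adjusted p = 0.0792 and 0.110), and other single libraries ended some of them. LOC116417845 kept its call in 1 of 18 alternative settings and lost it whichever single library was left out. Without the rRNA genes, 525 genes were called.

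Some of the falling genes were also neighbours. The next tested neighbour had fallen too for 39 of 454 falls (8.59%, against 4.11% of all genes tested), and had risen too for 6 of 47 rises (12.8%, against 0.437%), most of them in the rRNA block. There were 3 runs of 3 falling genes. In the first, LOC100117135 was at 13.9, 11.8 and 16.2 CPM with dsGFP and 23.3, 26.3 and 36.3 CPM in uninjected animals, LOC100117098 averaged 6.09 against 13.0 CPM, and LOC103315564 averaged 1.87 against 3.71 CPM. The second held LOC103316057 (0.752 against 1.52 CPM), LOC103316055 (13.2 against 26.3 CPM) and LOC103316058 (41.2 against 75.4 CPM). All 6 are protein-coding, and the log2 fold changes were -1.10 to -0.87. None of the dsGFP and uninjected ranges overlapped, as in all 480 falls, beside 13.1% of all genes tested. Reads carry no strand, so read pairs where neighbours overlap could be given to neither gene and were not counted. LOC100117135, LOC103316055 and LOC103316058 stayed called in all 21 alternative settings. LOC100117098 was lost without dsGFP 1 or dsGFP 2 (adjusted p = 0.0616 and 0.0620). LOC103315564 was lost without dsGFP 1, dsGFP 2 or uninjected 2 (adjusted p = 0.0938 to 0.116), and LOC103316057 without these, uninjected 3 or water 2 (adjusted p = 0.0524 to 0.134).

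The largest falls at 1 CPM or more were led by LOC103317436, a protein-coding gene of unknown product. It was at 1.08, 0.725 and 0.989 CPM with dsGFP, 1.14, 2.96 and 3.17 CPM with water, against 5.28, 43.2 and 18.8 CPM in uninjected animals. The dsGFP pools were alike, and the uninjected pools spread widely above them. The fitted log2 fold change reached -4.58, with SE 0.87 (edgeR adjusted p = 0.0342). Next came the cuticle gene CPR44 and LOC100119983, which also had the most reads of all genes that fell. LOC100119983 was at 199, 103 and 295 CPM with dsGFP, 320, 562 and 454 CPM with water, against 567, 1176 and 1082 CPM in uninjected animals (log2 fold change -2.24, SE 0.45, edgeR adjusted p = 0.0352). The remaining 5 of the 8 largest averaged 0.495 to 1.43 CPM with dsGFP and 1.68 to 5.53 CPM in uninjected animals. These were LOC103315587, LOC100118983, LOC100114838, LOC100115126 and LOC116416325 (log2 fold changes -2.17 to -1.74). Several of these calls rested on few pools. LOC103317436 was lost without any dsGFP library, uninjected 3, water 2 or water 3 (adjusted p = 0.0591 to 0.173). LOC100119983 was lost without dsGFP 1, dsGFP 2, uninjected 2, uninjected 3 or water 3 (adjusted p = 0.0576 to 0.130). Leaving out dsGFP 2 ended the call of each of the other 5 (adjusted p = 0.0764 to 0.176), and some were also lost without other libraries.

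**Figure D4:**
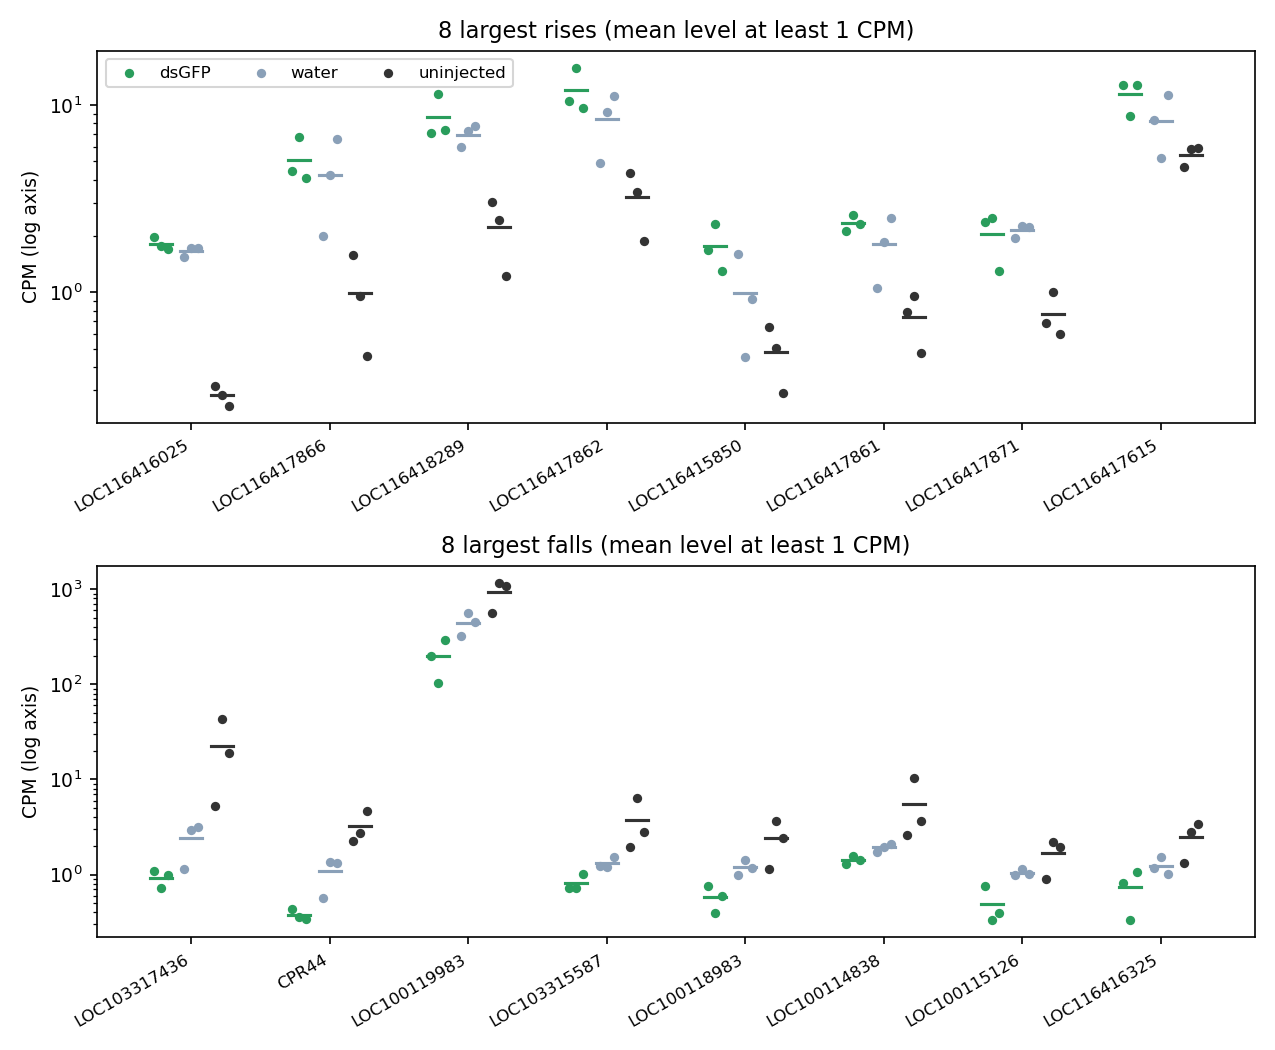
CPM (log axis) of the 8 largest rises (top) and the 8 largest falls (bottom) among genes with a mean of at least 1 CPM, with points for libraries and a bar for the mean of 3. These genes were taken from calls whose dsGFP and uninjected points do not overlap. The uninjected points spread widely in falls such as LOC103317436.

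Among falls with many reads, LOC100116183 kept its call in all 21 alternative settings. It was at 179, 152 and 166 CPM with dsGFP, 210, 226 and 197 CPM with water, against 275, 335 and 284 CPM in uninjected animals. The 3 groups did not overlap one another (log2 fold change -0.85, SE 0.12, edgeR adjusted p = 0.00871). LOC100120779 fell to 229 ± 98.0 CPM with dsGFP, against 748 ± 161 CPM in uninjected animals (SD, n = 3 each), and LOC100679311 to 167 ± 29.3 against 356 ± 114 CPM. LOC100117850 (210 against 299 CPM) and LOC100114292 (195 against 291 CPM) completed the group. Rises with many reads were smaller. LOC100119724 was at 353, 412 and 327 CPM with dsGFP, 269, 200 and 228 CPM with water, against 244, 220 and 160 CPM in uninjected animals (log2 fold change 0.81, SE 0.17, edgeR adjusted p = 0.0223). There the dsGFP pools stood above both other groups, which overlapped. LOC100117064, LOC100113720, LOC100117452 and LOC103316630 rose by 0.50 to 0.64 on the log2 scale. Apart from LOC100116183, each of these genes lost its call without 1 or more single libraries. Without dsGFP 1, LOC100120779 had an adjusted p = 0.0722, LOC100679311 0.109, LOC100117850 0.0502, LOC100114292 0.120, LOC100119724 0.0792, LOC100117064 0.0920, LOC100113720 0.157, LOC100117452 0.113 and LOC103316630 0.0651. Without dsGFP 2 LOC100120779 and LOC100117452 held (adjusted p = 0.0419 each), and without uninjected 2 LOC100679311 alone (adjusted p = 0.0484). Each of the other libraries, when left out, also ended some of these calls (adjusted p up to 0.122, for LOC100113720 without uninjected 3).

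The cytochrome P450 genes with a symbol supplied all 3 rises among genes with descriptive names. P450 enzymes oxidise hormones, lipids and foreign compounds. CYP6AQ5 was at 346, 568 and 344 CPM with dsGFP, 342, 242 and 306 CPM with water, against 226, 265 and 188 CPM in uninjected animals. The dsGFP pools were above the uninjected pools, with dsGFP 2 far above the rest (log2 fold change 0.89, SE 0.22, edgeR adjusted p = 0.0470). CYP4AB12 was at 115, 114 and 120 CPM with dsGFP and 88.6, 76.6 and 92.9 CPM in uninjected animals, and CYP6CK7 at 97.0, 99.5 and 88.8 CPM against 64.3, 75.8 and 73.4 CPM. Both rose by less than 1.5-fold (log2 fold changes 0.44 and 0.42). Of 34 P450 genes tested, 3 rose and 2 fell, where 0.437% and 4.11% of all genes did, and 17 values lay above 0 and 17 below. One that fell, CYP314A1, encodes the enzyme that turns ecdysone into its active form, the moulting hormone. It was at 28.5, 24.5 and 32.1 CPM with dsGFP, 30.9, 44.2 and 37.3 CPM with water, against 46.5, 112 and 73.8 CPM in uninjected animals (log2 fold change -1.45, SE 0.30, edgeR adjusted p = 0.0332). CYP4AB21 fell to 10.1 ± 1.23 CPM with dsGFP, against 15.8 ± 2.98 CPM in uninjected animals (SD, n = 3 each). None of these 5 calls held without dsGFP 1 (adjusted p = 0.0704 to 0.136) or without dsGFP 2 (adjusted p = 0.0988 to 0.163). Without dsGFP 3 that of CYP6AQ5 alone held (adjusted p = 0.0400), and without uninjected 3 that of CYP4AB12 alone (adjusted p = 0.0337), and other single libraries ended some of these calls too.

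Other genes of the moulting pathway did not pass the test. Of 5 hormone and neuropeptide genes tested CYP314A1 alone was called, and the other 4 had positive values (list median 0.69). Over all genes tested, 4.11% fell and 0.437% rose. The ecdysone receptor gene Ecr was at 296, 431 and 351 CPM with dsGFP and 317, 278 and 160 CPM in uninjected animals, and the groups overlapped (log2 fold change 0.51, edgeR adjusted p = 0.286). Of 3 storage protein genes, which mark the larval fat body, 0 were called, beside 4.55% of all genes tested. Hex70b, a hexamerin that stores amino acids for metamorphosis, was at 2339, 1997 and 3054 CPM with dsGFP and 3240, 3974 and 4440 CPM in uninjected animals, without overlap (log2 fold change -0.66, edgeR adjusted p = 0.159). Hex109 and Hex83 had positive values (0.85 and 0.63).

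The cuticle genes held 3 of the named falls, all with few reads. CPR proteins carry the Rebers-Riddiford chitin-binding domain and form the bulk of many insect cuticles. CPR44 was at 0.438, 0.362 and 0.339 CPM with dsGFP, 0.571, 1.36 and 1.34 CPM with water, against 2.26, 2.71 and 4.67 CPM in uninjected animals. The uninjected pools all stood above the injected ones (log2 fold change -3.07, SE 0.40, edgeR adjusted p = 0.00871). Its call held in all 21 alternative settings. CPR22 fell to 0.189 ± 0.0213 CPM with dsGFP, against 0.829 ± 0.558 CPM in uninjected animals, and CPR47 to 4.72 ± 1.07 against 9.16 ± 2.07 CPM (SD, n = 3 each). Of 38 cuticle and chitin genes tested, 3 fell and 0 rose, beside 4.11% and 0.437% of all genes. Most values nonetheless lay above 0 (26 of 38, median 0.72, beside 5967 of 11665 over all genes tested), none of them called. The pools differed widely here. The list summed to 25420, 40451 and 6083 CPM with dsGFP, 23585, 2478 and 13605 CPM with water, against 13174, 7624 and 943 CPM in uninjected animals, so the groups overlapped. CPR22 was lost without any single library but uninjected 1 (adjusted p = 0.0514 to 0.159), and CPR47 without dsGFP 1, dsGFP 2, uninjected 2, uninjected 3 or water 3 (adjusted p = 0.0521 to 0.118).

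A pair of nuclear genes of cytochrome c oxidase, the last complex of the respiratory chain, fell. Cox7a1 was at 9.81, 7.08 and 8.53 CPM with dsGFP, 10.4, 14.7 and 14.7 CPM with water, against 15, 17.9 and 18 CPM in uninjected animals (log2 fold change -0.998, SE 0.17, edgeR adjusted p = 0.0106). Cox6c was at 9.32, 7.87 and 10.1 CPM with dsGFP, 10.7, 11.6 and 12.4 CPM with water, against 13.6, 17.0 and 18.6 CPM in uninjected animals (log2 fold change -0.85, SE 0.15, edgeR adjusted p = 0.0113). For both, every dsGFP pool lay below every uninjected pool, and the water pools lay between them. The call of Cox7a1 held in all 21 alternative settings, and that of Cox6c was lost without dsGFP 2 (adjusted p = 0.0514). These 2 were the only calls among 64 tested genes of the respiratory chain and ATP synthase, where 4.11% of all genes tested fell. Of the 64 values, 62 lay below 0, beside 5698 of 11665 over all genes tested. The list median was only -0.15, beside 0.00725 over all genes tested. Uqcrh, a subunit of complex III, had 64.4 ± 3.37 CPM with dsGFP and 78.4 ± 8.78 CPM in uninjected animals (SD, n = 3 each, log2 fold change -0.28, edgeR adjusted p = 0.183). The list summed to 8539, 7916 and 8545 CPM with dsGFP and 8691, 8896 and 9918 CPM in uninjected animals, so each dsGFP pool lay below the uninjected pools, by little.

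GRD, a ligand-gated ion channel subunit, was at 12.1, 13.2 and 15.3 CPM with dsGFP, 17.0, 17.1 and 15.2 CPM with water, against 18.3, 27.6 and 23.5 CPM in uninjected animals (log2 fold change -0.78, SE 0.16, edgeR adjusted p = 0.0177). It was the only call among 18 nervous system genes tested, of which 16 had values below 0 (median -0.37). Of all 11665 genes tested, 4.11% fell and 5698 had values below 0. The list summed to 227, 248 and 293 CPM with dsGFP, 302, 333 and 290 CPM with water, against 308, 405 and 310 CPM in uninjected animals, and no dsGFP pool reached the uninjected pools. The potassium channel gene Slo had 29.5 ± 4.82 CPM with dsGFP and 42.2 ± 6.33 CPM in uninjected animals (SD, n = 3 each, edgeR adjusted p = 0.0863). GluCl, a glutamate-gated chloride channel, had 23.4 ± 4.14 and 34.8 ± 8.21 CPM (edgeR adjusted p = 0.104). Odorant receptors, which sit in the sensory neurons of the antenna, were read at very low levels. Only 78 of 214 in the files could be tested, 2 of these fell (beside 4.11% of all genes tested), and 53 had values below 0 (median -0.27). The median level of the 78 was 0.581 CPM, and among all genes tested under 1 CPM 63.9% had values below 0 (median -0.197). Or41 fell to 0.871 ± 0.189 CPM with dsGFP, against 2.05 ± 0.555 CPM in uninjected animals (SD, n = 3 each), and Or140 to 0.234 ± 0.121 against 0.776 ± 0.268 CPM. Or140 was read from 4 to 13 read pairs in each dsGFP library. Of 8 gustatory receptors tested, out of 46 in the files, 0 were called (median -0.0127), beside 4.55% of all genes tested. GRD was lost without dsGFP 1, dsGFP 2 or uninjected 2 (adjusted p = 0.0556 to 0.0792). Or41 was lost without dsGFP 1, dsGFP 2 or uninjected 3 (adjusted p = 0.0565 to 0.0978), and Or140 kept its call only without dsGFP 3 or uninjected 1 (adjusted p = 0.0565 to 0.166 without any other).

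In muscle, Zasp66, a protein of the Z-disc that anchors the contractile filaments, was at 7.51, 5.73 and 8.48 CPM with dsGFP, 9.56, 9.48 and 7.53 CPM with water, against 13.5, 26.5 and 17.8 CPM in uninjected animals. Dye-injected pools of both kinds lay below all uninjected pools (log2 fold change -1.41, SE 0.24, edgeR adjusted p = 0.0111). Without dsGFP 2 the call was lost (adjusted p = 0.0513). The tropomyosin genes did not pass. Tm2 had 22.8 ± 8.43 CPM with dsGFP and 50.1 ± 15.5 CPM in uninjected animals, and Tm1 had 846 ± 45.7 and 754 ± 70.2 CPM (SD, n = 3 each).

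Among genes that answer microbes or double-stranded RNA and bear a matching symbol, 1 was called. Only 5 immune and melanisation genes and 1 core RNA interference gene did so. Genes of these kinds known only by a locus number could not be looked up. Gnbp1-2, of a family of secreted proteins that bind microbial glucans, was at 12.6, 10.2 and 15.2 CPM with dsGFP and 17.7, 19.9 and 23.2 CPM in uninjected animals (log2 fold change -0.68, SE 0.16, edgeR adjusted p = 0.0417). It was the only call among 5 immune and melanisation genes tested, where 4.11% of all genes tested fell and 0.437% rose. The call was lost without dsGFP 1, dsGFP 2, uninjected 2, uninjected 3, water 2 or water 3 (adjusted p = 0.0612 to 0.154). The antimicrobial peptide gene Def1-1 varied between pools of each group, at 64.3, 71.7 and 11 CPM with dsGFP and 14.5, 602 and 0.145 CPM in uninjected animals. Its fitted value (log2 fold change -2.07, SE 2.3, edgeR adjusted p = 0.666) rested on uninjected 2 and was 2.74 without that pool. Tudor-sn, which encodes a nuclease found in silencing complexes and was the one core RNA interference gene matched by symbol, was at 215, 274 and 268 CPM with dsGFP and 259, 276 and 196 CPM in uninjected animals. The groups overlapped (log2 fold change 0.05, SE 0.16, edgeR adjusted p = 0.893). The sign of so small a value changed with upper-quartile scaling and without dsGFP 2 or uninjected 3.

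The remaining named falls came from unrelated families. faa, the symbol of the fumarylacetoacetase that ends tyrosine breakdown, was at 39.3, 36.7 and 44.4 CPM with dsGFP, 49.5, 51.6 and 44.5 CPM with water, against 62.1, 63.2 and 66.4 CPM in uninjected animals (log2 fold change -0.67, SE 0.10, edgeR adjusted p = 0.00894). The uninjected pools agreed closely and stood above all injected pools, and the call held in all 21 alternative settings. TctexA, a dynein light chain, fell to 6.01 ± 1.57 CPM with dsGFP, against 10.6 ± 1.14 CPM in uninjected animals (SD, n = 3 each). It was the only call among 11 dynein and dynactin genes (list median 0.04), where 4.11% of all genes tested fell. Dcst1, of the DC-STAMP family of membrane proteins, fell to 7.36 ± 0.713 against 10.9 ± 0.338 CPM. TRNAQ-CUG, a glutamine tRNA gene, fell to 0.216 ± 0.0769 against 0.720 ± 0.176 CPM, a level of few reads. TctexA was lost without dsGFP 1, dsGFP 2, uninjected 2 or uninjected 3 (adjusted p = 0.0685 to 0.114). Dcst1 kept its call only without water 3 (adjusted p = 0.0529 to 0.138 without any other), and TRNAQ-CUG was lost without dsGFP 1, dsGFP 2, uninjected 1, uninjected 3 or water 1 (adjusted p = 0.0508 to 0.134).

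In 5 further lists 0 genes were called, beside 4.55% of all genes tested. These were 34 serine proteases and homologs (22 values above 0, median 0.25), 27 other detoxification genes (10 above 0, median -0.05), and 13 yellow and royal jelly-like genes (7 above 0, median 0.00113). The others were 3 chaperones (median 0.04) and 4 microRNA precursors (median -0.26). Over all genes tested, 5967 of 11665 values lay above 0. SP49, a serine protease, had 3.83, 1.25 and 8.56 CPM with dsGFP and 1.18, 0.524 and 0.394 CPM in uninjected animals, without overlap (log2 fold change 2.72, SE 0.78, edgeR adjusted p = 0.119). SP115 had 31.7 ± 3.87 CPM with dsGFP and 51.3 ± 15.1 CPM in uninjected animals (SD, n = 3 each, edgeR adjusted p = 0.0866).

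**Figure D5:**
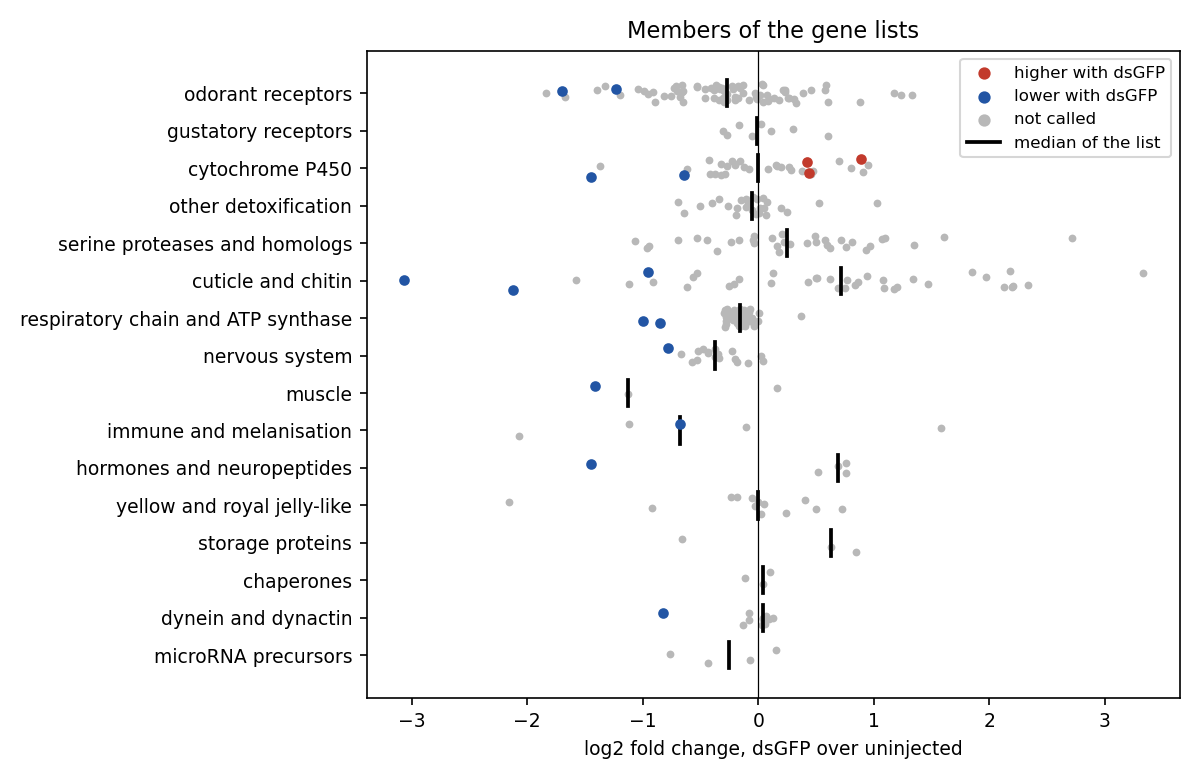
Fitted log2 fold change (dsGFP over uninjected) of each tested member of 16 gene lists, with called rises in red, called falls in blue, genes not called in grey and a black bar for the list median. At most 3 members of any list rose and at most 3 fell, in lists of unlike size, where 4.55% of all genes tested were called. Of 34 P450 genes 3 rose and 2 fell, beside 0.437% and 4.11% of all genes tested. In the respiratory list 62 of 64 values lie below 0 with a median of -0.15, beside 5698 of 11665 over all genes tested.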

How the data were processed

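RNA of whole male pools was sequenced after poly(A) enrichment as paired reads of 150 bp without strand marking, per the labels' protocols. The authors deposited counts of read pairs per gene for each library in the layout of STAR (2.6.1b per the submitters' processing notes). Which genome build they counted on is not stated in the labels or files. The unstranded column was used. Read pairs matching several places or several genes were not counted. Of 15430 rows, 12 name no gene and were left out (0.0518 to 0.0608% of counts), which left 15418 genes. Of these, 14940 matched by symbol a RefSeq table of assembly Nvit_psr_1.1, used for names, types, spans and order, 478 did not, and 14496 bear only a locus number.

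edgeR 4.0.16 in R 4.3.3 (filterByExpr with a minimum count of 10 and total of 15, TMM, glmQLFit robust, glmQLFTest) was fitted to all 9 libraries without covariates, and the contrast was dsGFP minus uninjected. Calls are genes at an adjusted p under 0.05 (Benjamini-Hochberg over the 11665 tested). CPM uses TMM-scaled totals, except that rRNA sums use plain gene totals. A count of 0 allows up to 3 counts, or 0.0651 to 0.0885 CPM on plain gene totals, for counting error only. Library values were compared by exact permutation tests. DESeq2 1.42.0, limma-voom (limma 3.58.1), other scalings and filters, a replicate block, strand columns, thinning and left-out libraries were alternatives. Steps were tested on simulated data.

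Named genes are the 8 largest changes in each direction at 1 CPM or more and the 6 with the highest CPM, among calls without overlap. Also named are every called gene with a symbol, up to 4 list members of smallest p, and up to 3 runs of 3 or more neighbours. Of uncalled list members a selection is given. Members and the 17 symbol-based lists were chosen with earlier results of these data known. Within each group, no pair of libraries agreed within sampling noise (chi-square per degree of freedom 96.6 to 336).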

Additional observations from a re-analysis of the deposited data

Results flagged for a closer look

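Read pairs outside the gene counts were more frequent with dsGFP than in uninjected animals in 3 of the 4 classes that the count files list. Unmapped read pairs made up 5.73 ± 0.151% of the dsGFP libraries and 3.02 ± 0.363% of the uninjected libraries (SD, n = 3 each), and the water libraries held 5.32 ± 0.471%. Read pairs with several matches made up 0.813 ± 0.0341% with dsGFP and 0.730 ± 0.0372% in uninjected animals. Those outside genes made up 7.84 ± 0.457% with dsGFP and 7.10 ± 0.114% in uninjected animals. Each share was higher in 3 of 3 dsGFP libraries than in any uninjected library, with an exact two-sided permutation p = 0.1, the smallest this design allows (adjusted p = 0.133). What the unmapped reads are was not tested.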

How the results depend on the processing

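DESeq2 called 939 genes (186 higher and 753 lower with dsGFP), and its share of falls, 80.2%, was below the 90.4% of edgeR. Fitted to the 6 libraries without water, 255 genes were called (21 higher, 234 lower), all among the 531. Leaving out 1 library gave 134 to 681 calls, 12 to 89 higher and 122 to 592 lower. A further pair of settings was added after seeing the data. Without scaling factors 563 genes were called (32 higher, 531 lower), in a fit where the median of all genes was -0.106 on the log2 scale. With dsGFP 1, water 3 and uninjected 3 left out together, edgeR called 0 genes (0 higher, 0 lower), with 1698 at an unadjusted p under 0.05, and no other tool was run there. That fit keeps 2 libraries per group, and the cause of the loss was not tested. Limma-voom (489), the other scalings (508 and 650), filters (512 and 544), thinning (525) and strand columns (418 and 440) stayed within 1.5 times.

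Replicate numbers did not pair the libraries (correlation of same-numbered dsGFP and uninjected deviations -0.0970, -0.0157 and 0.356), and a replicate block gave 539 calls (69 higher, 470 lower).

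For the 52 named genes that were called, 765 of 1079 refitted values kept the call, 314 lost it and 0 reversed. Leaving out dsGFP 2 ended 41 of the 52, dsGFP 1 ended 38 and all water libraries 34, while 9 held in all 21 alternative settings other than that added pair. Tudor-sn reversed to -0.00170 with upper-quartile scaling, and ranged from -0.0993 (without uninjected 3, and -0.0124 without dsGFP 2) to 0.143 with a library left out. Def1-1 reversed to 1.79 with limma-voom, and ranged from -2.66 to 2.74 (without uninjected 2) with a library left out. With a library left out, the dsGFP minus uninjected difference stayed positive at 19.7 to 25.0 CPM for rRNA, and at 2.51 to 2.86, 0.0633 to 0.101 and 0.524 to 0.980 percentage points for unmapped, multimapped and outside-gene pairs. It stayed negative for ambiguous pairs (-0.406 to -0.140). Depth limits genes under 1 CPM, where the median half-width of the 95% interval was 0.884 on the log2 scale.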
